A study of Sus scrofa with 6 samples.

Results

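The genes described here encode the nuclear-encoded subunits of the mitochondrial respiratory chain, complexes I to V, in the liver of ASGR1+/- and WT Bama minipigs. They were taken from the deposited expression table by symbol (NDUFA, NDUFB, NDUFC, NDUFS and NDUFV followed by a digit, SDHA to SDHD, and names that begin with UQCR, COX4 to COX8 or ATP5). The rule found 68 of the 17109 genes. Complex I had 38, complex II 4, complex III 2, complex IV 7 and complex V 17. By the symbols, complex I includes NDUFA4, now placed in complex IV. Complex V includes ATP5S and ATP5SL, which are not structural subunits. The sums and medians per complex below contain these members. The rule uses gene symbols and no measured value. All 68 passed the filter on low counts, and all 68 matched the Sscrofa11.1 annotation by gene ID and symbol. The subunits UQCRC1 and UQCRFS1 of complex III, COX4I1 of complex IV and the mitochondrially encoded subunits are not analysed here.

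The ASGR1+/- group was made of the libraries S03, S04 and S05 and the WT group of WT1, WT2 and WT3, with 1 liver library per animal, taken after an overnight fast. ASGR1 is the major subunit of the hepatic receptor that clears glycoproteins without sialic acid. The edited allele came from CRISPR/Cas9 cutting of fetal fibroblasts with 2 guides and lacks the junction of an intron and the exon that follows, in every cell of the animal. The founders were cloned from 1 colony with both alleles edited and 1 with a single edited allele, so the line descends from very few cells. WT pigs carried no edit. Pigs were weeks to a few months old and of nearly the same age within an experiment, and by the study's methods all the pigs it generated but 1 were male. The study left S03 out of its comparisons after a principal component analysis. S03 is therefore shown apart here, and results are given for S04 and S05 against WT first and for all 6 libraries second.

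Library totals lay between 15397768 and 16237732 counts. The 12 hepatocyte markers together made 60900 to 204000 CPM (counts scaled to a common library total and by TMM) with 60900 to 72800 in ASGR1+/- and 84600 to 204000 in WT, and albumin carried much of this gap. Without albumin the other 11 summed to 44300, 51900 and 56800 CPM in S03 to S05 and to 51100, 63300 and 89900 in WT1 to WT3, which overlap. In S04 and S05, 8 of the 12 lay below every WT library and FGB lay above. None of the 12 was at 0. Albumin took 0.919% to 3.26% of counts in ASGR1+/- and 3.57% to 9.81% in WT. S03 stood apart in its erythroid markers (798 CPM against 4.05 to 248 in the others), its endothelial markers (827 against 258 to 535) and the 26 genes on chromosome Y (45.3 CPM in all against 436 to 469). The erythroid sums of S04 and S05, 4.05 and 18.5, also lay below the 85.3 to 248 of WT. Their endothelial sums, 258 and 368, lay below 434 to 535, and their lymphocyte sums, 54.7 and 38.6, below 63.3 to 138. Neutrophil sums (17.1 and 16.7 against 5.61 to 8.58) and cholangiocyte sums (30.3 and 35.3 against 14.9 to 25.9) lay above WT. The largest part of the cholangiocyte sum was KRT19 in S04 (15.5 CPM) and CFTR in S05 (17.8 CPM). The other 3 of the 5 cholangiocyte markers had lower estimates in S04 and S05 than in WT. ASGR1 itself had 334, 290 and 273 CPM in S03 to S05, and 300, 370 and 285 CPM in the WT livers. These groups overlapped, and counts over the whole gene cannot show an allele that is still transcribed. On immunoblots, the paper reports substantially lower ASGR1 protein in ASGR1+/- liver than in WT liver. In bulk liver, fewer cells of a type and less RNA per cell cannot be told apart. The part of these shifts in the values below was not tested.

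The respiratory chain moves electrons from NADH (complex I) and succinate (complex II) through coenzyme Q, complex III and cytochrome c to oxygen at complex IV, and complex V makes ATP from the proton gradient that results. Complex II is also the succinate dehydrogenase of the citric acid cycle and pumps no protons. Most subunits are encoded in the nucleus and imported, and hepatocytes, which run gluconeogenesis and fatty acid oxidation during a fast, are rich in mitochondria.

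The subunits differed widely in level, and most of their fold changes between the genotypes lay near 0. On the scale of TPM, which is a level per length, the mean of the 3 WT libraries ran from 1.30 for NDUFA4L2 to 1250 for ATP5E. The 68 genes took 0.499% to 0.592% of all counts. Summed over complex I, the TPM was 5030 ± 248 (SD, n = 3) in WT, 5520 ± 468 (n = 2) in S04 and S05, and 5840 in S03. Summed over complex V, it was 5630 ± 243 in WT, 6200 ± 674 in S04 and S05, and 6202 in S03. For complex IV the sums were 3940 ± 397, 4200 ± 431 and 4592, and for the 2 genes of complex III 693 ± 43.5, 777 ± 109 and 799. Complex II went the other way, with 779 ± 79.6 in WT and 640 ± 96.8 in S04 and S05, while S03 had 749. Its groups overlapped too, since S04 (709) and S03 lay above WT3 (689). The values of S04 and S05 fell on both sides of the highest WT value for complexes I, III, IV and V.

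No subunit passed the test. By edgeR at an adjusted p of 0.05, 0 of 68 members passed for S04 and S05 against WT, where 106 of the 13401 genes tested did (0.791%). With all 6 libraries 0 of 68 passed, where 18 of 13243 genes did (0.136%). DESeq2 also passed 0 of 68 in each comparison, although it passed 9.57% of all genes without S03 and 5.64% with it. At an unadjusted p under 0.05 in edgeR, SDHA and SDHB were lower and ATP5F1 was higher in S04 and S05. That is 2 lower and 1 higher among 68, beside 12% lower and 8.89% higher among all genes. With all 6 libraries the same 2 were lower, and ATP5F1 and NDUFA7 were higher, beside 9.45% and 6.67% of all genes. Unadjusted, DESeq2 gave these same genes below 0.05 in both comparisons.

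The fold changes (log2FC, S04 and S05 relative to WT, with the SE from edgeR) lay close to 0. Their median over the 68 members was 0.00 on the log2 scale, with 34 below and 34 above 0, and the median over all genes tested was 0.003. Of the members, 55 (80.9%) lay within 0.25 of 0, beside 41.1% of all genes. Their median SE was 0.19, beside 0.25 for all genes. The 95% interval of the log2FC lay within 1 of 0, that is within a 2-fold change either way, for 63 of the 68 members (92.6%) and for 52.0% of all genes. The 5 whose interval passed that limit were NDUFA4L2, NDUFA7, SDHA, SDHB and ATP5F1. Only the intervals of SDHA, SDHB and ATP5F1 left out 0. The changes of the other members could not be told from 0 with 2 animals against 3.

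**Figure D1:**
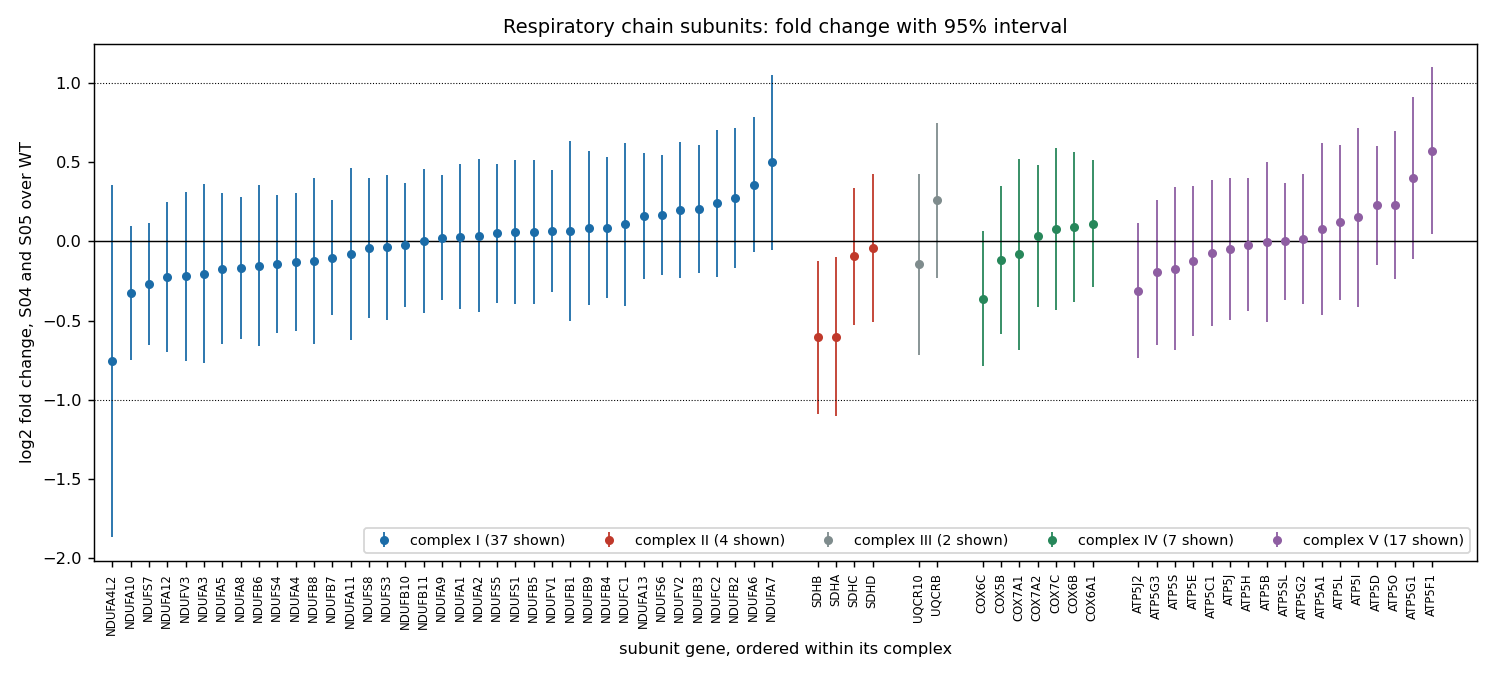
The log2FC between S04 and S05 and WT (y axis) for 67 of the 68 subunit genes (x axis), in order within complexes I to V. Points are edgeR estimates and bars their 95% intervals, and dotted lines mark a 2-fold change. Most intervals span 0, and the intervals of SDHA, SDHB and ATP5F1 do not.

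The complexes differed most at complex II. The median log2FC was 0.03 for complex I, -0.35 for complex II, 0.06 for complex III, 0.03 for complex IV and -0.001 for complex V. With all 6 libraries the medians were -0.02, -0.33, 0.05, 0.06 and -0.03 in the same order. All 4 genes of complex II were below 0, and 17 of 38, 1 of 2, 3 of 7 and 9 of 17 in the other complexes. The difference between complexes is a description of few genes and has no test. Left without S05, the median of complex II was -0.16, and without S04 it was -0.54.

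SDHA, on chromosome 16 from 79838442 to 79862956 of Sscrofa11.1, encodes the flavoprotein that oxidizes succinate. Its level was 276 CPM in WT1, 323 in WT2 and 352 in WT3, and 234 in S04, 183 in S05 and 231 in S03. All 3 ASGR1+/- libraries lay below every WT library. The mean was 209 ± 35.6 (SD, n = 2) against 317 ± 38.3 (n = 3), a log2FC of -0.60 (SE 0.21, 95% interval -1.11 to -0.10), and the adjusted p was 0.176 from edgeR and 0.0758 from DESeq2.

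SDHB, on chromosome 6 from 75648362 to 75678111, encodes the iron-sulfur subunit that carries the electrons on from SDHA. Its level was 122, 139 and 108 CPM in WT1 to WT3, and 91.3 in S04, 70.4 in S05 and 88.1 in S03. By CPM no ASGR1+/- library reached the lowest WT library, but by TPM the groups overlapped, with 240 in S03 and 222 in S04 against 219 in WT3. The log2FC was -0.61 (SE 0.20, 95% interval -1.09 to -0.13), and the adjusted p was 0.163 from edgeR and 0.0927 from DESeq2. This was the smallest edgeR adjusted p of any member. With S03 included, the log2FC values of SDHA and SDHB were -0.55 and -0.56, with edgeR adjusted p of 0.214 and 0.188.

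SDHC and SDHD encode the membrane anchor of complex II, which holds the heme and the site for coenzyme Q. SDHC had 139, 143 and 148 CPM in WT1 to WT3, and 151 in S04, 117 in S05 and 132 in S03. SDHD had 55.6, 58.9 and 68.5 CPM in WT, and 68.3 in S04, 50.0 in S05 and 62.3 in S03. Both overlapped between the groups. Their log2FC values were -0.09 (95% interval -0.53 to 0.34) for SDHC and -0.04 (-0.51 to 0.43) for SDHD.

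Within a library, the ratio of 2 genes does not depend on how the library was scaled. The ratio of SDHA counts to SDHC counts was 1.99, 2.26 and 2.38 in WT1 to WT3, and 1.55 in S04, 1.56 in S05 and 1.75 in S03. The ratio of SDHB to SDHD was 2.19, 2.37 and 1.58 in WT, and 1.34, 1.41 and 1.41 in S04, S05 and S03. In both ratios every ASGR1+/- library lay under every WT library. The ratio of SDHA to SDHB overlapped, with 2.27 to 3.25 in WT and 2.56 to 2.63 in ASGR1+/-. These ratios were chosen after the levels had been seen and have no test. Of the 12 hepatocyte markers, 6 also lay below every WT library in all 3 ASGR1+/- libraries, and their part in this difference was not tested.

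**Figure D2:**
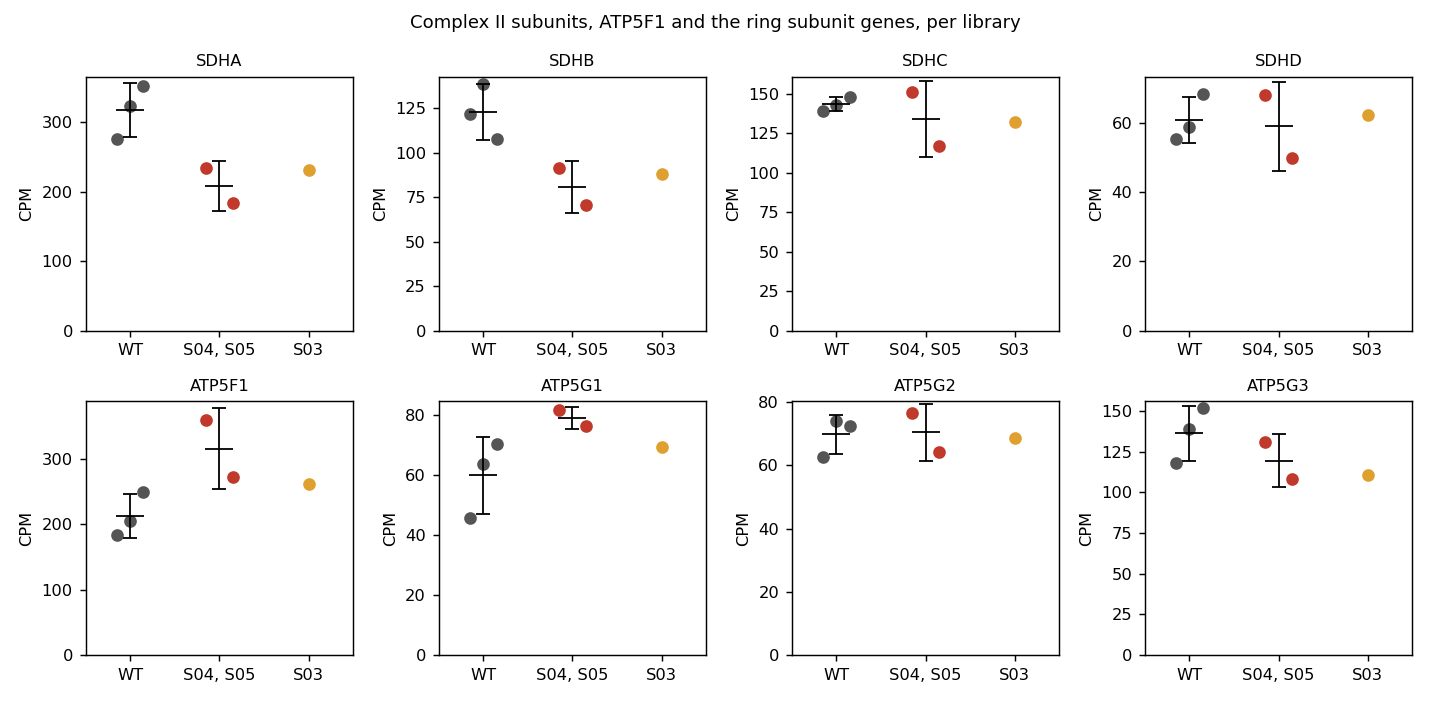
Level in CPM (y axis, from 0) of the 4 complex II genes and of 4 complex V genes in each library. Points are libraries, and the bar and whiskers are the mean and SD of WT (n = 3) and of S04 and S05 (n = 2), with S03 apart. SDHA and SDHB sit below, and ATP5F1 above, every WT library in all 3 ASGR1+/- libraries, while SDHC and SDHD overlap.

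Complex I passes electrons from NADH through a flavin and a row of iron-sulfur clusters held by its core subunits, and its accessory subunits surround and stabilize the core. The 7 nuclear core genes, NDUFV1, NDUFS1 and NDUFS7 among them, had a median log2FC of 0.06, from -0.27 for NDUFS7 to 0.20 for NDUFV2. NDUFV1, which binds NADH, had 64.6 to 77.0 CPM in WT, 76.4 in S04, 74.2 in S05 and 64.3 in S03. NDUFS1, the largest core subunit, had 75.4 to 105 CPM in WT, 92.1 in S04, 94.6 in S05 and 76.1 in S03. Neither differed beyond the WT range except that S03 was just under the lowest WT library for NDUFV1.

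The 31 accessory genes had a median of 0.02. The highest was NDUFA7, on chromosome 2 from 70954844 to 70961717, with 7.68, 11.3 and 10.4 CPM in WT1 to WT3, and 14.5 in S04, 13.1 in S05 and 14.2 in S03. The 3 ASGR1+/- libraries lay above every WT library, with a log2FC of 0.50 (SE 0.23, edgeR adjusted p = 0.279). NDUFA10, an accessory subunit of the membrane arm, had 65.9, 76.4 and 84.5 CPM in WT, and 64.0, 56.7 and 61.4 in S04, S05 and S03. Here all 3 lay below WT, by little for S04, and the log2FC was -0.32 (SE 0.18, edgeR adjusted p = 0.354). NDUFA4L2 was the lowest of all members, with 1.51 to 2.5 CPM in WT and 0.798, 1.55 and 0.793 CPM in S04, S05 and S03. Its log2FC of -0.76 had a SE of 0.47 and rests on 13 to 42 counts per library. NDUFA4, which is its paralog and is now placed in complex IV, made 98.0% to 99.4% of the counts of the pair and had a log2FC of -0.13 (95% interval -0.57 to 0.31).

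The 2 genes on chromosome X overlapped between the genotypes. NDUFA1 had 13.9 to 18.2 CPM in WT, 16.3 in S04, 15.9 in S05 and 19.3 in S03, the highest of the 6. NDUFB11 had 47.2 to 61.8 CPM in WT, 62.4, 50.5 and 52.8 in S04, S05 and S03. S03, the library with few chromosome Y counts, was thus not set apart for NDUFB11.

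Of complex III, UQCRB and UQCR10, both small subunits outside the catalytic core, were measured. UQCRB had 40.9, 56.2 and 52.2 CPM in WT1 to WT3, and 67.6 in S04, 51.4 in S05 and 51.6 in S03. UQCR10 had 38.6, 55.1 and 64.2 CPM in WT, and 52.1, 43.0 and 51.8 in the same order. Only S04 lay outside the WT range, for UQCRB. Their log2FC values were 0.26 (95% interval -0.23 to 0.75) and -0.15 (-0.72 to 0.43).

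The 7 genes of complex IV, all for small subunits around the mitochondrially encoded core, had log2FC values from -0.36 for COX6C to 0.11 for COX6A1. COX6C had 96.7, 118 and 115 CPM in WT1 to WT3, and 91.9 in S04, 79.1 in S05 and 103 in S03. S04 and S05 lay below WT, and S03 lay within it (log2FC -0.36, SE 0.18, edgeR adjusted p = 0.307). COX7C, with the highest TPM of the complex (1060 in WT), had 109 to 152 CPM in WT, 157 in S04, 123 in S05 and 156 in S03.

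COX7A1 and COX7A2 are isoforms of 1 subunit, and COX7A1 is known in mammals as the form of heart and skeletal muscle. By TPM, COX7A1 was the more abundant here, with 579 ± 123 (SD, n = 3) in WT against 323 ± 23.5 for COX7A2. By counts the order was the reverse, with 29.5 ± 8.57 CPM against 48.2 ± 6.67. The lengths implied by the deposited counts and FPKM were 66.1 bp for COX7A1 and 195 bp for COX7A2, so their order by level depends on the length the authors divided by. Striated muscle markers summed to 1.55 to 3.87 CPM in the 6 libraries. COX7A1 made 33.9% to 42.3% of the counts of the pair in every library, and neither isoform differed between genotypes beyond its spread (log2FC values -0.08 and 0.03).

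The same limit applies to other short members. ATP5I had an implied length of 58 bp and 640 TPM at 28.6 CPM, while ATP5L had 2440 bp and 52.6 TPM at 99.5 CPM. The median implied length was 421 bp for the members and 2760 bp for the other genes tested. Among genes under 500 bp, the median log2FC was 0.03 for 38 members and 0.10 for 402 other genes, and among genes over 2000 bp it was -0.09 for 6 members and -0.01 for the others.

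**Figure D3:**
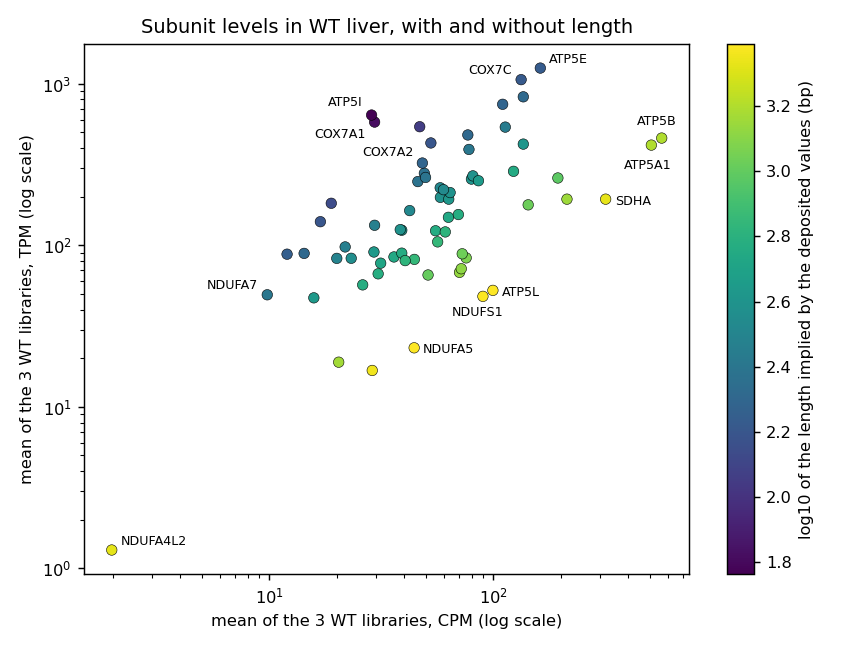
Mean WT level of each subunit gene as CPM (x axis, log scale) and as TPM (y axis, log scale), with the color giving the log10 of the length implied by the deposited values. Each point is 1 of the 68 genes (mean of 3 libraries). ATP5I and COX7A1, with the shortest lengths, have TPM far above other genes of like CPM, and ATP5L, NDUFS1 and NDUFA5 have TPM far below.

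Complex V has a catalytic F1 head, a ring of c subunits that turns in the membrane, and a peripheral stalk that holds the head still. Its genes carry their older symbols in the table. The head genes ATP5A1 and ATP5B, for the alpha subunit and the catalytic beta subunit, were the most counted members. ATP5B had 476, 568 and 648 CPM in WT1 to WT3, and 594 in S04, 531 in S05 and 440 in S03. ATP5A1 had 416, 501 and 604 CPM, and 579, 490 and 421. S04 and S05 lay within WT for both, and the median log2FC of the 5 head genes was -0.01. ATP5D, the delta subunit of the head, had 47.1 to 55.3 CPM in WT and 63.4, 56.2 and 63.2 in S04, S05 and S03, above every WT library, with a log2FC of 0.23 (edgeR adjusted p = 0.468).

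ATP5F1, now named ATP5PB and on chromosome 4 from 108896063 to 108907626, encodes the b subunit of the peripheral stalk. Its level was 183 CPM in WT1, 205 in WT2 and 250 in WT3, and 360 in S04, 272 in S05 and 262 in S03. All 3 ASGR1+/- libraries lay above every WT library. The mean was 316 ± 62.1 (n = 2) against 213 ± 34.3 (n = 3), a log2FC of 0.57 (SE 0.22, 95% interval 0.04 to 1.10), and the adjusted p was 0.21 from edgeR and 0.129 from DESeq2. The other 3 stalk genes, ATP5H, ATP5J and ATP5O, had log2FC values of -0.02, -0.05 and 0.23. Per library, the ratio of ATP5F1 counts to ATP5A1 counts was 0.441, 0.409 and 0.415 in WT, and 0.621, 0.555 and 0.623 in S04, S05 and S03, with no overlap. This ratio was also chosen after the levels had been seen.

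ATP5G1, ATP5G2 and ATP5G3 encode the same mature c subunit with different import signals. ATP5G1 had 45.6, 63.7 and 70.5 CPM in WT1 to WT3, and 81.6 in S04, 76.4 in S05 and 69.4 in S03 (log2FC 0.40, SE 0.22, edgeR adjusted p = 0.347). Of the counts of the 3 genes, ATP5G1 made 20.1%, 23.0% and 23.9% in WT, and 28.2%, 30.8% and 27.9% in S04, S05 and S03. ATP5G3 made 50.2% to 52.2% in WT and 43.4% to 45.2% in ASGR1+/-, and ATP5G2 made 24.6% to 27.7% in all 6. The shares of ATP5G1 and ATP5G3 thus did not overlap between the genotypes, whereas the CPM of ATP5G3 did. These 3 genes are near-identical over the mature subunit, so their split depends on how the authors assigned reads. ATP5S and ATP5SL, now named DMAC2L and DMAC2, match the rule by their old names but are not structural subunits. Their log2FC values were -0.17 and -0.001.

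Few members had groups without overlap. S04 and S05 lay below every WT library for 5 members (COX6C, NDUFA10, NDUFS7, SDHA and SDHB), or 7.35%, beside 20.1% of all genes, and above every WT library for 6 (ATP5D, ATP5F1, ATP5G1, NDUFA6, NDUFA7 and NDUFC2), or 8.82%, beside 19.0%. With S03 as well, NDUFA10, SDHA and SDHB lay below and ATP5D, ATP5F1 and NDUFA7 lay above, 4.41% each, beside 11.8% and 9.94% of all genes. These shares of members were smaller than those of all genes.

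The subunits varied together between animals of the same genotype. WT1 was the lowest WT library for 62 of the 68 (91.2%), beside 34.4% of all genes tested, and S04 was above S05 for 62 of the 68, beside 49.4%. The median of the members' log2 CPM, set against each gene's WT mean, was -0.19 in WT1, 0.08 in WT2 and 0.12 in WT3, and 0.10 in S04, -0.10 in S05 and -0.06 in S03. Over all genes the same medians lay between -0.011 and 0.012. The medians of the members in S04 and S05 thus both lay within the range of the WT animals. WT1 had the lowest median of the 3 WT libraries in every complex, from -0.09 for complex II to -0.34 for complex III. Complex II alone had its lowest median in S05, at -0.54, and it was below 0 in S04 and S03 as well, at -0.17 and -0.28. WT1 also had the lowest hepatocyte marker sum of the WT libraries, with and without albumin, and its part in the low subunit levels was not tested.

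**Figure D4:**
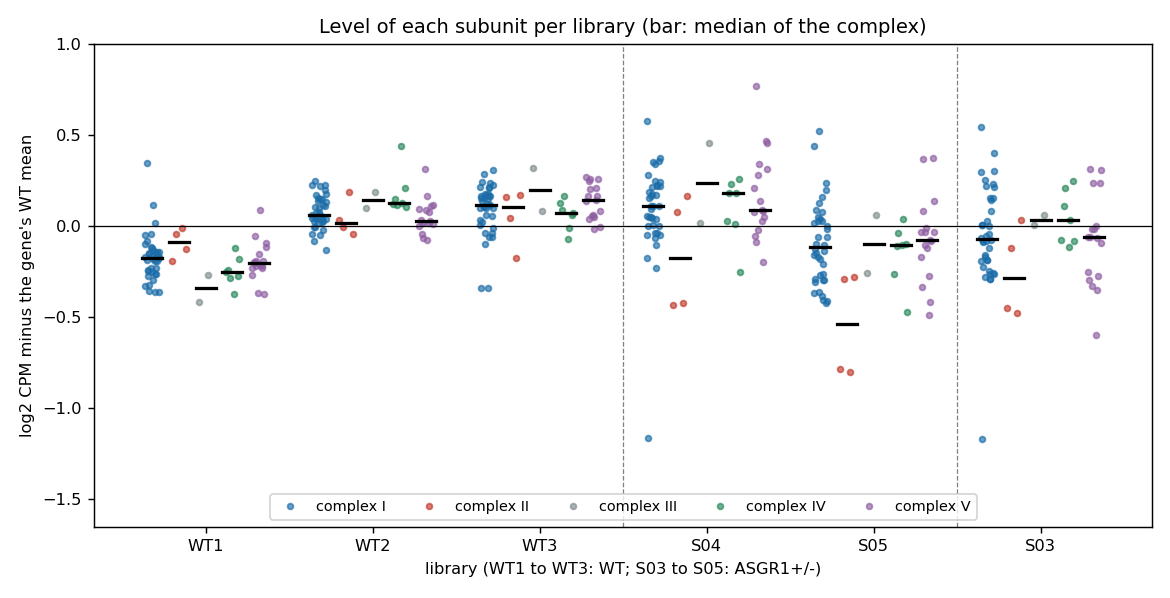
Log2 CPM of each subunit gene minus its WT mean (y axis) in each library (x axis), with points colored by complex and bars for the median of each complex. WT1 lies below WT2 and WT3 and S05 below S04 in every complex, and complex II has its lowest median in S05.

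S03 was within the WT range for 37 members, below it for 20 and above it for 11. It lay outside all 5 other libraries for 18, 13 of them below and 5 above. Those below included NDUFV1 and NDUFV2, at the NADH-oxidizing end of complex I, and ATP5B, ATP5C1 and ATP5H of complex V. NDUFV2 had 45.8 CPM in S03 and 49.9 to 71.4 in the other 5. The differences of S03 from its nearest library were small, and 1 library has no replicate.

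Around the chain, other genes deliver electrons from further substrates. Among 10 measured genes for electron carriers and for subunits that the symbol rule leaves out, 1 was lower and 0 higher in S04 and S05 at an edgeR adjusted p of 0.05 (median log2FC -0.20, median size 0.36 beside 0.32 for all genes). It was SUOX, the sulfite oxidase that passes electrons to cytochrome c, with 46.3, 60.0 and 66.1 CPM in WT1 to WT3, and 20.6 in S04, 13.3 in S05 and 23.3 in S03. Its log2FC was -1.76 (SE 0.26, edgeR adjusted p = 0.0463), or -1.59 over all 6 libraries (edgeR adjusted p = 0.0618). The DESeq2 adjusted p of SUOX was 7.39e-07, or 4.17e-06 over all 6 libraries. All 3 ASGR1+/- libraries lay below every WT library. ETFDH, which feeds electrons from fatty acid oxidation into coenzyme Q, had 162, 188 and 173 CPM in WT, and 111, 78.9 and 167 in S04, S05 and S03 (log2FC -0.87, edgeR adjusted p = 0.0905, DESeq2 adjusted p = 0.006). With S03 its log2FC was -0.55 and the DESeq2 adjusted p 0.35, so that call was lost. Its partner ETFA had 206 to 303 CPM in WT and 158, 128 and 124 (log2FC -0.75, edgeR adjusted p = 0.153). All 3 ASGR1+/- libraries thus lay below every WT library for ETFA, and its DESeq2 adjusted p was 0.053, or 0.0161 with S03. CYCS, the electron carrier cytochrome c, had 108, 116 and 135 CPM in WT, and 175, 187 and 143 in S04, S05 and S03. Its log2FC was 0.60, with an adjusted p of 0.132 from edgeR and 0.0257 from DESeq2, which was 0.134 with S03. NDUFAB1, the acyl carrier protein of complex I, had 51.3 to 58.6 CPM in WT, 68.3 in S04 and 57.5 in S05.

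In coenzyme Q synthesis 1 of 13 genes was lower and 0 were higher (median 0.01). COQ8A, an atypical kinase of the synthesis complex, had 54.2, 66.7 and 49.5 CPM in WT1 to WT3, and 24.4 in S04, 17.8 in S05 and 41.4 in S03. Its log2FC was -1.43 (SE 0.22, edgeR adjusted p = 0.049), or -1.03 with S03, which lay nearer to WT (edgeR adjusted p = 0.172). The DESeq2 adjusted p of COQ8A was 1.02e-05, or 0.0421 with S03. Leaving out any single library of the 5 ended the edgeR calls of both COQ8A and SUOX. DESeq2 was not run with single libraries of the 5 left out.

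Of the 21 genes of the citric acid cycle and pyruvate dehydrogenase, 0 passed edgeR, DESeq2 passed 1, and the median was -0.10. At an unadjusted edgeR p under 0.05, 3 were lower and 1 was higher, beside 12% and 8.89% of all genes. FH, the enzyme after complex II in the cycle, had 403, 408 and 294 CPM in WT, and 275, 237 and 249 in S04, S05 and S03 (log2FC -0.52, edgeR adjusted p = 0.244). CS, the enzyme of the first step and a usual measure of mitochondrial content, had 49.1, 51.1 and 93.4 CPM in WT, and 83.5, 88.6 and 51.3. In all 3 ASGR1+/- libraries, 3 of the 21 genes lay below every WT library, beside 11.8% of all genes. They were FH, PDHA1 (log2FC -0.64), a subunit of pyruvate dehydrogenase, and IDH3G (-0.39), a subunit of isocitrate dehydrogenase. The gene that passed DESeq2 was MPC1, of the pyruvate carrier, with a log2FC of -0.77 (DESeq2 adjusted p = 0.0439). S03 had 267 CPM of MPC1, within the 188 to 290 of WT. With S03 the log2FC of MPC1 was -0.40 and its DESeq2 adjusted p 0.608, so that call was lost. Over all 6 libraries the gene that passed DESeq2 was PDHA1 (DESeq2 adjusted p = 0.0348). SUCLA2, OGDH and MDH2 had log2FC values of 0.19, -0.10 and 0.21.

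Regulators of respiratory genes did not pass edgeR either (0 of 20), and DESeq2 passed 2, or 1 with S03. Unadjusted edgeR p-values under 0.05 went to 4 genes that were higher and 0 that were lower, beside 8.89% and 12% of all genes. PPARGC1A, the coactivator of mitochondrial biogenesis that fasting induces in liver, had 38.8, 65.6 and 42.1 CPM in WT, and 38.5, 40.1 and 30 in S04, S05 and S03 (log2FC -0.31, SE 0.25). NRF1 and GABPA, transcription factors for many subunit genes, had log2FC values of 0.22 and 0.04, and TFAM, which packages mitochondrial DNA, had 0.07. ESRRA, the orphan receptor partner of PPARGC1A, had 0.60 (edgeR adjusted p = 0.189). TFB2M, a factor for mitochondrial transcription, had 9.11, 9.67 and 10.4 CPM in WT, and 20.6 in S04, 34.4 in S05 and 11.6 in S03. Its log2FC was 1.5 (edgeR adjusted p = 0.0519, DESeq2 adjusted p = 7.33e-05, or 0.0454 with S03). The other regulator that passed DESeq2 was PPRC1, with 13.1 to 13.5 CPM in WT, and 21.3, 39.6 and 18.1 in S04, S05 and S03. PPRC1 had a log2FC of 1.19 (edgeR adjusted p = 0.081, DESeq2 adjusted p = 0.00528, or 0.0556 with S03).

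Assembly factors, which insert cofactors and join subunits, were measured for each complex, and none passed edgeR. Their median log2FC values were 0.02 (16 genes, complex I), -0.01 (3, complex II), 0.65 (3, complex III), 0.20 (11, complex IV) and 0.14 (5, complex V). Unadjusted edgeR p-values under 0.05 went to 7 that were higher and 0 that were lower, beside 8.89% and 12% of all genes. DESeq2 passed 1 each for complexes I, III and IV, beside 9.57% of all genes. With S03 the calls of NDUFAF6 (complex I, DESeq2 adjusted p = 0.201) and BCS1L (complex III, 0.228) were lost. For complex II, SDHAF2, which attaches the flavin to SDHA, had 26.7 to 30.4 CPM in WT, and 28.1, 23.7 and 24.6 in S04, S05 and S03. SDHAF1, which helps mature SDHB, had a log2FC of -0.01. By CPM the assembly factors of complex II thus overlapped between the genotypes where SDHA and SDHB did not, though by TPM SDHB overlapped too. The exception was SDHAF3, with 0.774 to 1.87 CPM in WT and 2.32 to 2.79 in ASGR1+/-. COX17, the copper chaperone of complex IV, had 31.3, 37.6 and 34.3 CPM in WT, and 67.2, 65 and 46.9 in S04, S05 and S03 (log2FC 0.94, edgeR adjusted p = 0.0516, DESeq2 adjusted p = 0.000101).

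**Figure D5:**
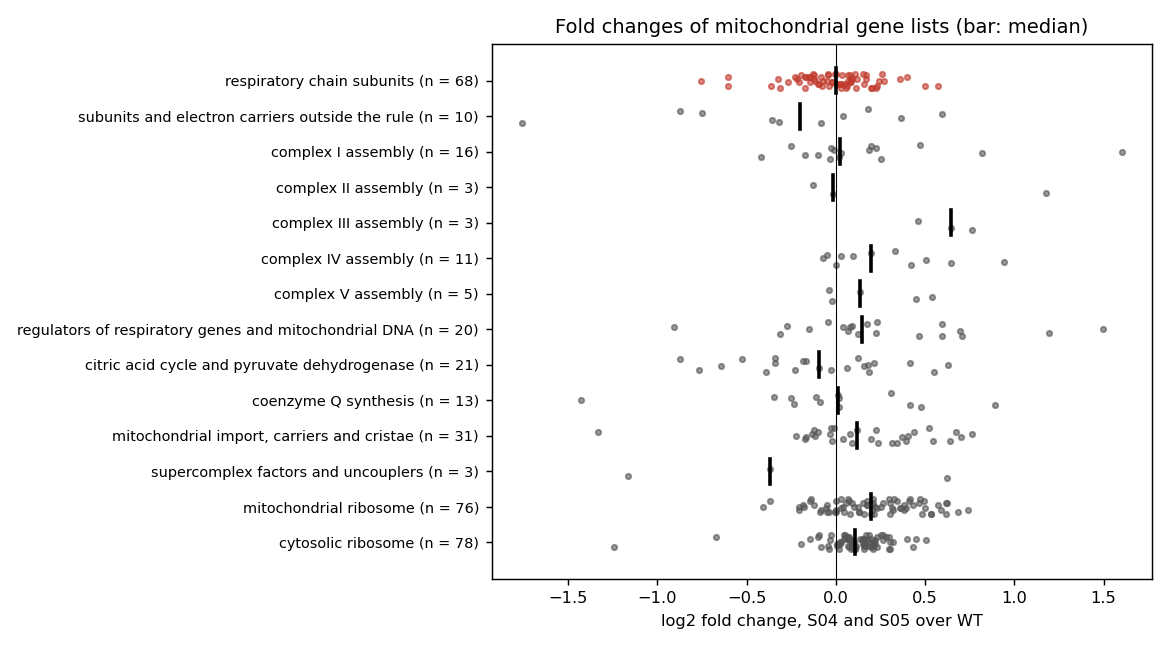
The log2FC between S04 and S05 and WT (x axis) for each gene of the respiratory chain subunits and of 13 other mitochondrial and ribosomal gene lists (rows), with a bar at the median of each. The subunits lie between -0.76 and 0.57 with their median at 0.00, and SUOX and COQ8A are the lowest points of their lists.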

How the data were processed

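Liver RNA of 3 ASGR1+/- and 3 WT pigs was sequenced on the BGISEQ platform. The authors used SOAPnuke for trimming, HISAT for alignment against the genome and Bowtie2 for alignment against genes (HISAT2 2.0.4 and Sscrofa11.1 in the submitters' processing notes). The deposited table holds, per library, estimated counts that are not normalized, FPKM, and TPM that the authors scaled to a fixed sum. The counting tool is not given in the sources used here. The deposited group averages were not used. Of the count cells, 12% were not whole (tolerance 1e-06), and all were rounded.

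The main test was edgeR 4.0.16 (R 4.3.3, quasi-likelihood, TMM, filterByExpr with a minimum count of 10, Benjamini-Hochberg over all genes tested). The SE of a log2 fold change (log2FC) is its size divided by the root of the F statistic. DESeq2 1.42.0 and limma 3.58.1 (log2(TPM + 1) or log2(TPM + 0.1), filter at a mean TPM of 1) gave alternatives, as did other scalings, no filter and leaving out each library. Log2 CPM used a prior count of 2. Scripts were tested on simulated data.

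CPM are scaled by the TMM factors of all 6 libraries. Implied length is the count over FPKM and library size. With 15397768 to 16237732 counts per library, the spread between animals limits the precision. P-values set the difference between the groups against the spread between the animals of these few libraries. Reads of paralogs and pseudogenes may have been split between genes.

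The symbol rule reads no measured value, but the rule and the lists were proposed with earlier results of these data known. Kinases and a binding protein whose symbols begin like those of ribosomal proteins were taken out by name. Named by rule were, per complex, the members of highest and lowest fold change, highest TPM and smallest p, isoforms, list genes that passed, and a few regulators. The other members and list genes, SDHA among them, were named after their values were seen. A promoter motif search was planned but not run, since no sequence was used here. Mitochondrially encoded genes are not analysed here. Values of 1 member are not reported here by name.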

Additional observations from a re-analysis of the deposited data

How the results depend on the processing

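No member passed under any alternative in either comparison. Where composition scaling was left out (library totals only), the median over all genes moved from 0.003 to 0.105 on the log2 scale and that of the members from 0.00 to 0.12. With limma on log2(TPM + 1) they were 0.103 and 0.11, and unfiltered 0.032 and 0.11. As each library was left out, the members' median ran from -0.11 (without S04) to 0.11 (without S05), while that of all genes lay between -0.023 and 0.018. The median of complex II, -0.35, was -0.24 with library totals only, -0.25 with limma on log2(TPM + 1) with and without the filter, and between -0.54 and -0.16 as each library was left out. Without S05 no gene of the table passed (2 without S04, 5 without WT2, 53 without WT1 and 115 without WT3, against 106), so the number of calls depends on single animals. All genes passed were 99 with RLE scaling, 131 with upper quartile scaling, 90 with library totals only, 151 without a filter, 203 and 201 with limma on filtered TPM, 6 with limma unfiltered and 1307 with DESeq2. With all 6 libraries, 18 passed in the test as run, 19 with RLE scaling, 63 without a filter, 815 with DESeq2, and 1 to 106 as each library was left out.

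Several members with changes near 0 changed sign. With limma on log2(TPM + 1), filtered or not, the log2 fold change was 0.023 for NDUFA4, 0.05 for SDHD, 0.01 for UQCR10, 0.01 for ATP5E and 0.11 for COX7A1, and with log2(TPM + 0.1) it was 0.024, 0.049, 0.010, 0.010 and 0.110. With library totals only it was 0.067 for SDHD and 0.033 for COX7A1. With S03 included it was -0.057 for GABPA and -0.022 for TFAM. As each library was left out, the log2 fold change ran from -0.27 to 0.017 for NDUFA4, -0.28 to 0.18 for SDHD, -0.31 to 0.022 for UQCR10, -0.11 to 0.26 for COX7C, -0.28 to 0.036 for ATP5E, -0.24 to 0.17 for COX7A1, -0.12 to 0.19 for COX7A2, -0.12 to 0.15 for ATP5G2 and -0.016 to 0.13 for GABPA. SDHA ran from -0.79 to -0.42 and SDHB from -0.81 to -0.42, and over all alternatives the adjusted p ran from 0.0758 to 0.548 for SDHA and from 0.0927 to 0.533 for SDHB. COQ8A missed the threshold with RLE scaling (adjusted p = 0.0514), library totals (0.0655) and limma (0.0554 to 0.119), and SUOX with limma on unfiltered TPM (0.0823). The cause of these shifts was not tested. No paired analysis was possible because the labels give the animals of the 2 groups no shared numbers beyond 1 and name no litter or batch.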

Other observations

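Of 76 measured genes of the mitochondrial ribosome, which translates the mitochondrially encoded subunits, 59 had a log2 fold change above 0 in S04 and S05 (median 0.20, beside 0.003 for all genes), and 34 of the 76 lay above every WT library and 1 below, beside 19.0% and 20.1% of all genes. None passed edgeR (unadjusted p-values under 0.05 went to 14 that were higher and 0 that were lower, beside 8.89% and 12% of all genes), and 1 passed DESeq2. With S03 included the median was 0.09, and none passed DESeq2. In all 3 ASGR1+/- libraries, 10 of the 76 lay above every WT library and 0 below, beside 9.94% and 11.8% of all genes. WT1 was the lowest WT library for 60 of these 76 genes, as it was for most subunits, whereas S04 was above S05 for 33 of them, against 62 of the 68 subunits. Of the 78 genes of the cytosolic ribosome 67 were above 0, with a median of 0.11, and none passed edgeR (1 lower and 2 higher at an unadjusted p under 0.05, 1 by DESeq2).

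Among 31 genes of mitochondrial import, carriers and cristae the median was 0.12, none passed edgeR and 2 passed DESeq2, 1 lower and 1 higher. The higher was HSPA9 (log2 fold change 0.76, edgeR adjusted p = 0.112, DESeq2 adjusted p = 0.00415). With S03 the DESeq2 adjusted p of HSPA9 was 0.252, and HSPD1 (0.0304) and HSPE1 (0.0202) passed DESeq2 as higher. At an unadjusted edgeR p under 0.05, 1 was lower and 5 were higher, beside 12% and 8.89% of all genes. The lower was SLC25A4, an exchanger of ADP and ATP across the inner membrane, with 159, 277 and 215 CPM in WT1 to WT3. It had 89.4 in S04, 82.7 in S05 and 109 in S03, with no overlap. Its log2 fold change was -1.33 (standard error 0.27, edgeR adjusted p = 0.0696, DESeq2 adjusted p = 0.000215, or 0.000403 with S03). SLC25A5 and SLC25A6, of the same family by symbol, had log2 fold changes of 0.20 and 0.22 (edgeR adjusted p = 0.627 and 0.564).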
